A study of Mus musculus with 6 samples.

Results

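The semaphorin, ephrin and Slit guidance families were read in bone from 3 skeletal sites of the mouse, calvaria, mandible and ulna, with 2 arrays for each site. Members were taken by gene symbol alone, as the probe sets with exactly 1 symbol that belongs to the semaphorins, plexins, neuropilins, Slits, Robos, ephrins or Eph receptors. This gave 60 genes on 137 probe sets, out of 18193 genes with a symbol of their own. RNA came from adult male mice of 24 to 26 grams with no treatment between the groups other than the site. The calvaria had its sutures removed, the mandible kept its teeth, and the ulna was freed of soft tissue and epiphyses. The comparison of skull with limb bone asks whether bones of different function differ in expression in the adult. The study's methods divide the mice into groups and do not state how many gave RNA to an array, so each may hold pooled RNA. The p-values rest on how far arrays of the same site lie apart, pooled over the 3 sites and moderated over all tested probe sets. That spread may be technical only.

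Guidance molecules were first known for steering growing axons, and they work mainly by repulsion or by contact between neighbouring cells. Class 3 semaphorins are secreted and bind neuropilins that pair with plexins, most other semaphorins are held in the membrane and bind plexins directly, and Slits are secreted ligands of Robo receptors. Ephrins sit on the cell surface and signal through Eph receptor kinases on the next cell, with ephrin-A anchored by a lipid and ephrin-B spanning the membrane, and both partners can signal into their own cell. In bone, these families are known from studies of osteoblast and osteoclast coupling, of the sutures and of skeletal innervation.

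Values are MAS5 signal, a linear intensity in arbitrary units, and the results do not compare levels between guidance genes. The sums of cell type markers given below add probe sets of different genes, so those of highest signal weigh most in them. The 6 array medians lay between 30.6 and 33.6. Over tested probe sets, log2 values correlated at 0.952 to 0.956 within a site and at 0.797 to 0.862 across sites. A probe set had to exceed the median of its array on 2 or more of the 6 arrays to be tested, and 46 of the 60 guidance genes had such a probe set. The other 14 (Efna3, Epha1, Epha5, Epha6, Epha8, Epha10, Ephb4, Ephb6, Sema4g, Sema5b, Sema6a, Sema6b, Slit1 and the antisense transcript Plxna4os1) lay between 0.329 and 50.2 over all their probe sets and arrays. Of the 46 tested genes, 27 were above the median on all 6 arrays, and 11 had no ulna array above it. Those 11 passed the filter through the skull sites alone, so the counts below are a description of the tested genes and support no direction for the families. For genes with a site under the median, the log2 difference is also not exact, since the deposited table holds no detection calls.

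Guidance genes were called in every comparison of the sites. The word called stands for a limma adjusted p below 0.05 together with a change of 2-fold or more. In calvaria against ulna, 15 of 46 were called higher (32.6%) and 0 lower, where 8.44% of all 12326 tested genes were called higher and 4.59% lower. For the count of 0, limma gave 2 genes lower at an unadjusted p under 0.05, Sema4a and Plxnc1, both past the adjusted p but under 2-fold. In mandible against ulna, 19 were called higher (41.3%) and 2 lower (4.35%), where the backgrounds were 11% and 11%. Between the skull sites, 3 were higher in mandible and 3 lower (6.52% each), where the backgrounds were 5.15% and 4.02%. In either direction, 15, 21 and 6 guidance genes stood beside backgrounds of 13%, 22% and 9.17%. Of the 15 genes called higher in calvaria, 7 are among the 11 that had no ulna array above the median, as are 9 of the 19 in mandible. The comparisons with ulna share the same 2 ulna arrays and are given side by side without a test of their likeness.

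The median log2 difference of the 46 genes was 0.68 in calvaria against ulna (-0.05 over all tested genes), 0.89 in mandible against ulna (-0.08 over all) and 0.05 in mandible against calvaria (-0.09 over all). Both calvaria arrays lay above both ulna arrays for 33 genes (71.7%, against 35.8% of all tested genes) and below for 5 (10.9%, against 32%). Both mandible arrays lay above both ulna arrays for 35 genes (76.1%, against 38.2%) and below for 5 (10.9%, against 36.3%). Between the skull sites, mandible lay above for 17 (37%, against 29.3%), below for 12 (26.1%, against 35.3%) and overlapped for 17. In bulk bone, fewer cells of a type and less RNA per cell cannot be told apart.

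**Figure D1:**
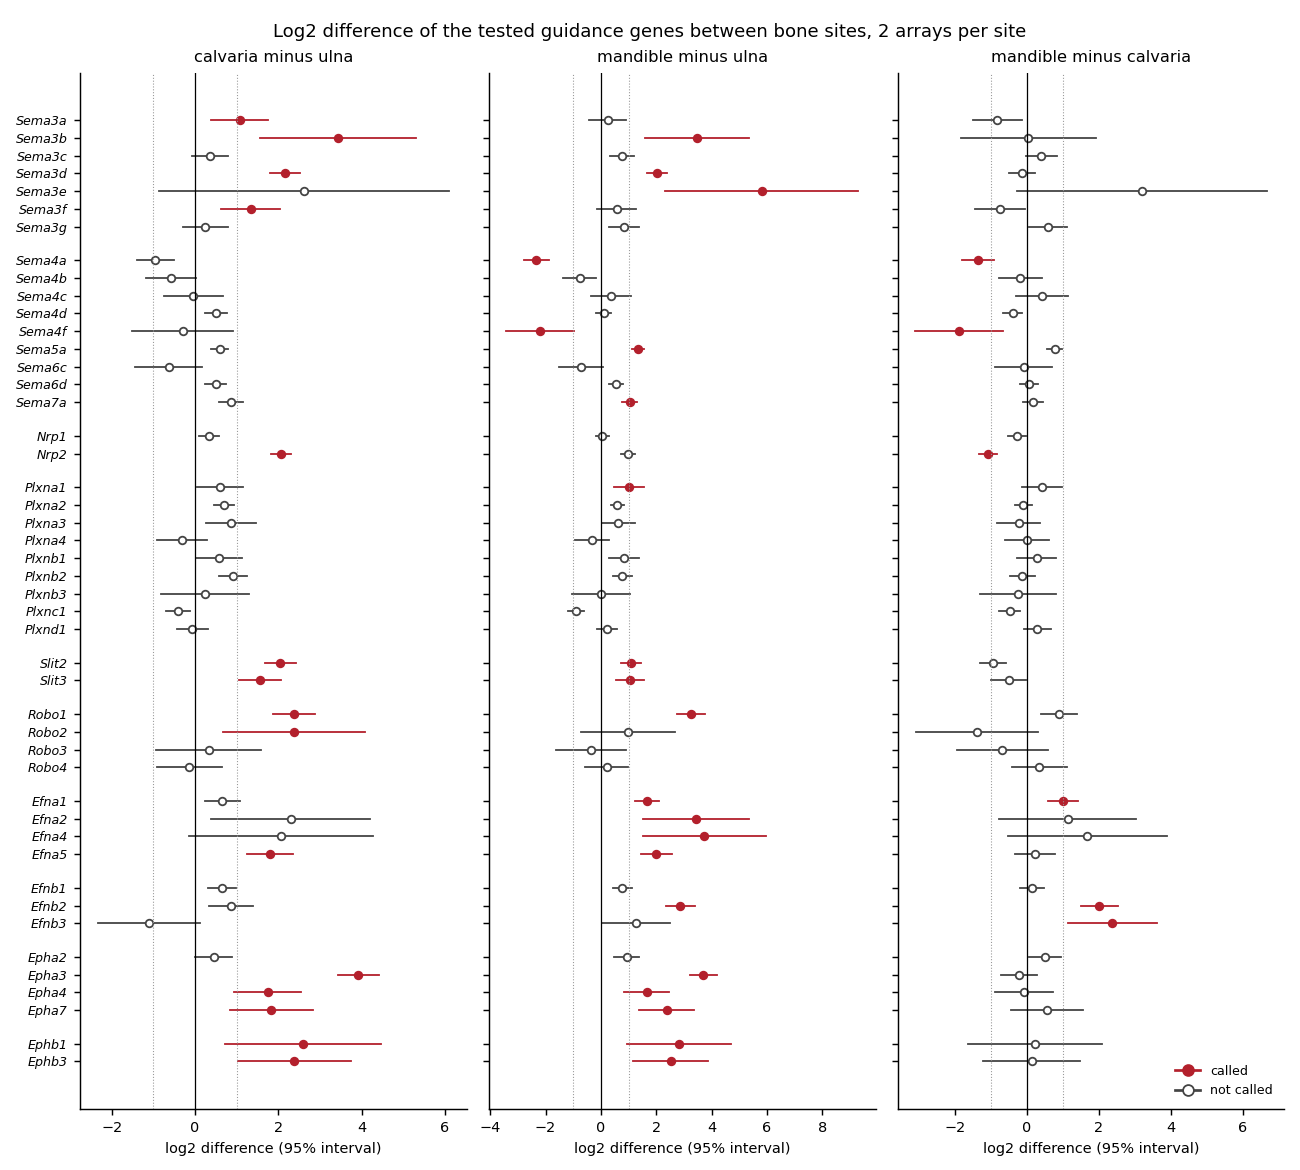
Log2 difference between sites for each of the 46 tested guidance genes, with its 95% interval from limma, in calvaria minus ulna, mandible minus ulna and mandible minus calvaria, and dotted lines at 2-fold. Filled red points are called: 15 in the first panel, 21 in the second and 6 in the third, with Epha3 at 3.92 and 3.70 in the first 2 panels and at -0.22 between the skull sites.

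The signal of cell type markers differed with site as well. The summed signal of 6 osteoblast markers was 28748 to 32506 in calvaria, 28072 to 29094 in mandible and 6041 to 6270 in ulna, and 6 of 6 were called higher in both skull sites. Osteocyte markers summed to 6407 to 7110, 9220.1 to 9226 and 3665 to 3735 in the same order. Osteoclast markers summed to 11585 to 11899, 6170.3 to 6425 and 2722 to 3232. Against ulna, 3 of 5 osteocyte and 5 of 7 osteoclast markers were called higher in calvaria, and 2 and 3 in mandible. Sost in calvaria (-0.53) and Mmp9 in mandible (-0.49) were below ulna, under 2-fold. Skeletal muscle markers were low in calvaria (5726 to 5879) and high in mandible (44234 to 44931) and ulna (50740.1 to 51467), with 9 of 9 called lower in calvaria against ulna.

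Markers of meninges summed to 1978 to 2447 in calvaria, 548 to 566 in mandible and 263 to 269 in ulna. Against ulna, 3 of 6 were called higher in calvaria and 1 of 6 in mandible. The calvaria sum was mostly Ptgds, at 1916 and 1406, with 42.8 and 48.6 in mandible and 41.2 and 29.5 in ulna. In mandible the largest part was Crabp2, at 287 and 283, with 16.2 and 27 in calvaria and 2.74 and 7.97 in ulna. Markers of neurons and glia, cells that use guidance genes widely, summed to 1631 to 1649.8, 1308 to 1332 and 434 to 471, with 6 of 9 tested called higher in calvaria and 4 higher and 1 lower in mandible. The mandible sum was mostly Mbp, a myelin gene, at 905 and 965 against 233 and 237 in ulna. Snap25, a synaptic gene of neurons, went the other way, with 0.457 and 0.899 in mandible, 23.4 and 12.1 in ulna and 415 and 362 in calvaria. Tooth markers summed to 64417 to 65607 in mandible and stayed at or under 90.8 elsewhere. Epithelial markers summed to 4616 to 4763 in mandible and 197 to 326 elsewhere. Endothelial markers ranged from 1324 to 1649 over all arrays, with 1 of 10 called higher and 1 lower in each skull site against ulna. Markers of B cells (3 of 6), of neutrophils (3 of 7) and of erythroid cells (6 of 6) were called lower in mandible against ulna. The lists did not all move the same way between sites, and their part in the results was not tested.

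Of the secreted class 3 semaphorins, Sema3b and Sema3d were called higher in both skull sites. All 7 genes were tested, and 4 of them were called higher in calvaria (Sema3a, Sema3b, Sema3d, Sema3f) and 3 in mandible (Sema3b, Sema3d, Sema3e). Over all tested genes, 8.44% were called higher in calvaria and 11% in mandible, the background for this and the later groups. Sema3b and Sema3e had no ulna array above the median, so these counts support no direction for the class. No class 3 gene was called between the skull sites. There, Sema3a, Sema3f, Sema3e and Sema3g had differences in mandible minus calvaria of -0.83, -0.76, 3.19 and 0.59 (limma, adjusted p of 0.0806, 0.118, 0.183 and 0.117).

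Sema3d, a secreted repellent that acts through neuropilin, read 224 and 268 in calvaria, 212 and 249.8 in mandible and 50.2 and 53.8 in ulna. The skull arrays overlapped each other, and all 4 lay above both ulna arrays. It was 4.47-fold higher in calvaria than in ulna (log2 2.16, SE 0.16, adjusted p = 2.78e-06) and 4.09-fold higher in mandible (log2 2.03, SE 0.16, adjusted p = 2.91e-06). The difference between the skull sites was -0.13 with a 95% interval of -0.49 to 0.23. Its second probe set had 0.28 in calvaria and 1.06 in mandible against ulna, and neither was called.

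Sema3b, a ligand of the same class, read 97.2 and 86.3 in calvaria, 113 and 83.1 in mandible and 2.31 and 28.1 in ulna. The skull arrays were close together and the ulna arrays far apart, both under the array median. The log2 difference was 3.43 in calvaria (SE 0.85, adjusted p = 0.0109) and 3.47 in mandible (SE 0.85, adjusted p = 0.00674). Without ulna replicate 1 the values were 1.62 and 1.66, and without ulna replicate 2 they were 5.24 and 5.28, all still called. The call of Sema3b was lost without calvaria replicate 1 or 2 in calvaria (adjusted p = 0.0652 and 0.0562) and without mandible replicate 1 in mandible (adjusted p = 0.0546).

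Sema3e, which binds plexin-D1 directly without a neuropilin, read 15.7 and 16.9 in calvaria, 142 and 165 in mandible and 0.248 and 25.4 in ulna. The mandible arrays stood above the other 4, which all lay under the array median, and calvaria fell between the ulna arrays. The difference in mandible minus ulna was 5.82 (SE 1.58, adjusted p = 0.0119), with 2.47 left when ulna replicate 1 was left out and 9.16 without ulna replicate 2. The call was lost without mandible replicate 1 or 2 (adjusted p = 0.0676 and 0.0774). In calvaria minus ulna the difference was 2.62 (adjusted p = 0.246), and it turned to -0.73 without ulna replicate 1. The 3 tested probe sets of Sema3e gave 3.08 to 5.82 in mandible minus ulna, 2 of them called, and 2.52 to 6.33 in mandible minus calvaria, 1 called.

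Sema3a, a repellent known in bone for acting on osteoblasts, osteoclasts and sensory nerves, was called in calvaria with a log2 difference of 1.07 (SE 0.31, adjusted p = 0.0229), and Sema3f, a neuropilin-2 ligand, with 1.33 (SE 0.32, adjusted p = 0.00903). In mandible they stood at 0.24 and 0.57, and neither was called. The Sema3a call in calvaria was lost without calvaria replicate 1, calvaria replicate 2 or ulna replicate 1 (adjusted p = 0.0597, 0.15 and 0.119), and that of Sema3f without calvaria replicate 1 or ulna replicate 2 (adjusted p = 0.0626 and 0.0511). Sema3c, another secreted ligand of the class, read 175 and 272 in calvaria, 335 and 261 in mandible and 164 and 160.0 in ulna. Both skull sites lay above ulna on every array, and the difference was 0.75 in mandible (adjusted p = 0.0095), under 2-fold. Sema3g was likewise past the adjusted p but under 2-fold in mandible (0.83, adjusted p = 0.0181).

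Among the receptors of the secreted semaphorins, Nrp2, the neuropilin that favours Sema3f, stood apart from Nrp1, the neuropilin that favours Sema3a. Nrp2 read 929 and 768 in calvaria, 422 and 403 in mandible and 202 and 182 in ulna. The 3 sites did not overlap, with calvaria highest and ulna lowest. Nrp2 was 4.17-fold higher in calvaria than in ulna (log2 2.06, SE 0.11, adjusted p = 2.25e-07), 0.98 higher in mandible on the log2 scale (adjusted p = 4.35e-05, just under 2-fold), and it fell by 1.08 from calvaria to mandible (adjusted p = 6.52e-05). Without calvaria replicate 1 the last difference was -0.94, under 2-fold. Of the 4 probe sets of Nrp2, 4 were called in calvaria against ulna (1.89 to 2.45), 2 in mandible against ulna (0.98 to 1.53 over the 4) and 1 in mandible against calvaria (-1.08 to -0.89 over the 4).

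Nrp1 read 915 and 844 in calvaria, 673 and 825 in mandible and 708 and 615 in ulna. Calvaria lay above the other sites, and mandible overlapped ulna. Its difference in calvaria minus ulna was 0.34 (SE 0.11, adjusted p = 0.0428), under 2-fold. The 4 probe sets of Nrp1 gave 0.34 to 0.64 in calvaria minus ulna and 0.02 to 0.15 in mandible minus ulna. They gave -0.54 to -0.21 in mandible minus calvaria, and none was called in any comparison.

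Plexins are the signalling receptors of semaphorins. All 9 were tested, and with 1 probe set a gene none was called in calvaria and Plxna1 alone in mandible, with 1.01 (SE 0.25, adjusted p = 0.00673). That call was lost without mandible replicate 1 (0.94) or ulna replicate 2 (0.79). Plxna2, a partner of neuropilins and receptor of class 6 semaphorins, read 319.8 and 313 in calvaria, 307 and 298 in mandible and 181 and 188 in ulna. All skull arrays lay above both ulna arrays, by 0.70 in calvaria (adjusted p = 0.000678) and 0.59 in mandible (adjusted p = 0.00122). Another of its 4 probe sets was called in mandible with 1.22 (adjusted p = 0.000421). The remaining probe sets of Plxna2 had 0.09 and 0.15 in calvaria and 0.57 and -0.33 in mandible, and were not called. Plxnb2, a receptor of class 4 semaphorins, had 0.91 and 0.78 (adjusted p = 0.00121 and 0.00209), again under 2-fold.

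Plxna3 in calvaria (0.86, adjusted p = 0.0329) and Plxnb1, the Sema4d receptor, in mandible (0.85, adjusted p = 0.0176) were past the adjusted p in the same direction, and a second probe set of Plxnb1 was called in mandible with 1.10 (adjusted p = 0.0296). Plxnc1, the plexin that binds Sema7a, was below ulna in both skull sites, with -0.41 in calvaria minus ulna (adjusted p = 0.0399), -0.89 in mandible minus ulna (adjusted p = 0.000315) and -0.48 in mandible minus calvaria (adjusted p = 0.0268). Another of its 3 probe sets was called lower in mandible, with -2.02 against ulna (adjusted p = 0.000182) and -1.10 against calvaria (adjusted p = 0.0172). Plxna4, Plxnb3 and Plxnd1 did not pass the adjusted p in any comparison.

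Membrane semaphorins moved in both directions. Of 13 genes, 9 were tested. With 1 probe set a gene, none was called in calvaria, and in mandible 2 were called higher (Sema5a, Sema7a) and 2 lower (Sema4a, Sema4f). Sema4a, known mainly from immune cells, read 197 and 126 in calvaria, 59.6 and 66 in mandible and 284 and 297 in ulna. The sites did not overlap, and ulna was highest. It fell by 2.33 in mandible against ulna (SE 0.20, adjusted p = 5.04e-06) and by 1.37 in mandible against calvaria (SE 0.20, adjusted p = 0.000619). In calvaria against ulna the difference was -0.96 (adjusted p = 0.00441), and it passed 2-fold without calvaria replicate 1 (-1.28) or ulna replicate 1 (adjusted p = 0.0231).

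Sema4f read 30.1 and 40.2 in calvaria, 13.1 and 7.04 in mandible and 52.7 and 31.3 in ulna. Both mandible arrays were lowest and under the array median, while calvaria and ulna overlapped. It fell by 2.20 against ulna (SE 0.55, adjusted p = 0.00784) and by 1.90 against calvaria (SE 0.55, adjusted p = 0.0312). The first call was lost without ulna replicate 1 (adjusted p = 0.0813). The other was lost without calvaria replicate 1 or 2, mandible replicate 2 or ulna replicate 1 (adjusted p = 0.0824, 0.176, 0.103 and 0.05003).

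Sema5a, a transmembrane semaphorin with thrombospondin repeats, was called in mandible against ulna with 1.36 (SE 0.10, adjusted p = 1.28e-06), and had 0.59 in calvaria against ulna (adjusted p = 0.00103) and 0.77 in mandible against calvaria (adjusted p = 0.00023). Its second probe set was called in all of these, with 2.39, 1.11 and 1.28 in the same order (adjusted p = 5.88e-07, 0.000299 and 0.000166). Sema7a, the semaphorin anchored by a lipid, was called in mandible with 1.04 (SE 0.13, adjusted p = 7.43e-05), which became 0.94 without ulna replicate 2, and had 0.86 in calvaria (adjusted p = 0.000466). Sema6d, a transmembrane ligand of plexin-A1, read 627 and 683 in calvaria, 770.3 and 634 in mandible and 414 and 468 in ulna. All skull arrays lay above both ulna arrays, by 0.50 (adjusted p = 0.00656) and 0.55 (adjusted p = 0.00228), but another probe set of Sema6d had -0.56 in mandible minus ulna (adjusted p = 0.437).

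Sema4d, the semaphorin that osteoclasts are known to present to osteoblasts through plexin-B1, had 0.50 in calvaria minus ulna (adjusted p = 0.00863) and -0.40 in mandible minus calvaria (adjusted p = 0.0333). In mandible minus ulna Sema4d had 0.10 (limma, adjusted p = 0.533). Its second probe set had 0.19 in calvaria minus ulna and -0.15 in mandible minus ulna. By the sums given above, osteoclast markers were highest in calvaria and lowest in ulna, and their part in the Sema4d values was not tested. Sema4b had -0.76 in mandible minus ulna (adjusted p = 0.0418). Sema4c and Sema6c did not pass the adjusted p in any comparison.

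**Figure D2:**
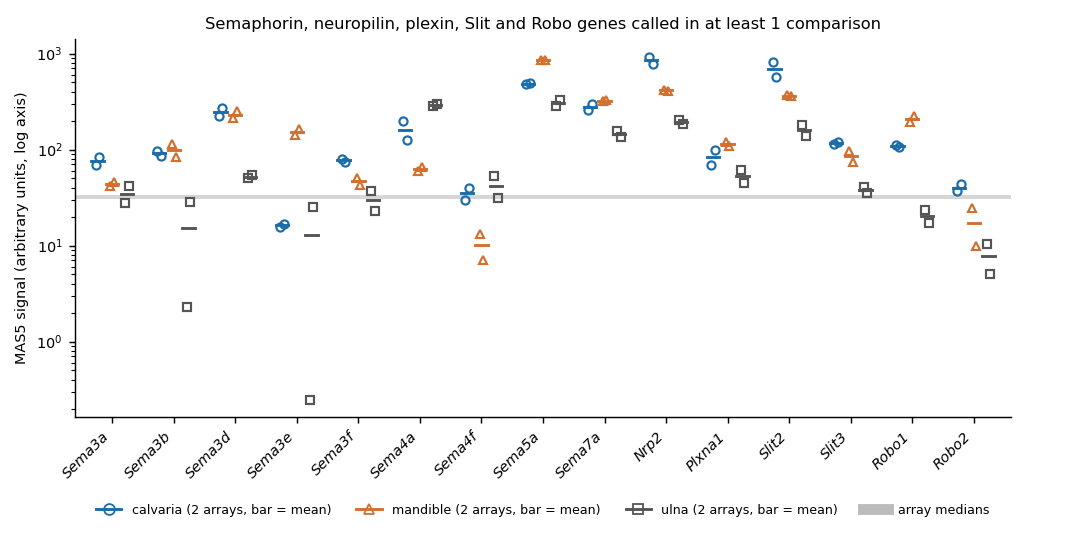
MAS5 signal (arbitrary units, log axis) on each array for the semaphorin, neuropilin, plexin, Slit and Robo genes called in at least 1 comparison, with circles for calvaria, triangles for mandible, squares for ulna, bars for the mean of 2 arrays and a grey band for the array medians. Nrp2 and Slit2 step down from calvaria over mandible to ulna, Sema4a is lowest in mandible, and Sema3e is above the medians in mandible alone, at 142 and 165.

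Both tested Slit ligands were called higher in both skull sites. Slit2, the secreted repellent read by Robo1 and Robo2, had 810.2 and 574 in calvaria, 368 and 362 in mandible and 180.1 and 137 in ulna. The 3 sites did not overlap and followed the same order as Nrp2. Slit2 was 4.12-fold higher in calvaria than in ulna (log2 2.04, SE 0.17, adjusted p = 5.37e-06) and 2.14-fold higher in mandible (log2 1.10, SE 0.17, adjusted p = 0.000325), which became 0.91 without ulna replicate 2. In mandible minus calvaria it had -0.94 (adjusted p = 0.00208), under 2-fold, where another probe set was called with -1.16 (adjusted p = 0.000232).

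Slit3, known in bone as a Slit made by osteoclasts and osteoblasts, was called with 1.56 in calvaria (SE 0.23, adjusted p = 0.000398) and 1.05 in mandible (SE 0.23, adjusted p = 0.00327). The mandible value was 0.86 without mandible replicate 1 and 0.95 without ulna replicate 2, both under 2-fold, and the difference between the skull sites was -0.51 with a 95% interval of -1.01 to -0.01 (adjusted p = 0.136). Slit1, the third Slit, was below the filter.

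Of the Robo receptors, Robo1 read 112 and 107 in calvaria, 194 and 222 in mandible and 23.7 and 17 in ulna. The 3 sites did not overlap, with mandible highest, and both ulna arrays were under the array median. Robo1 was 5.17-fold higher in calvaria (log2 2.37, SE 0.23, adjusted p = 1.84e-05) and 9.53-fold higher in mandible (log2 3.25, SE 0.23, adjusted p = 9.96e-07). The skull sites differed by 0.88 (adjusted p = 0.017), higher in mandible, the opposite order to Slit2.

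Robo2 read 36.8 and 43.3 in calvaria, 24.6 and 9.97 in mandible and 10.4 and 5.07 in ulna. Calvaria was above the array median and the other sites were below it. The call in calvaria (log2 2.38, SE 0.77, adjusted p = 0.0389) was lost without calvaria replicate 1 or 2 or ulna replicate 2 (adjusted p = 0.139, 0.198 and 0.118). Robo3 and Robo4, the latter a receptor of blood vessels, were not called anywhere, with signal from 13 to 36 and from 31.2 to 65.3. In the order of genes of GRCm38.p6, Robo1 and Robo2 are neighbours with 0 protein-coding genes between them, as are Robo4 and Robo3, and Sema3d and Sema3a.

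Promoter sequence is shown for the 5 genes called in calvaria against ulna with a limma adjusted p under 1e-04. They are a semaphorin, a neuropilin, a Slit, a Robo and an Eph. Between the skull sites they did not share a direction, with Nrp2 and Slit2 lower in mandible and Robo1 higher. The sequences are from RefSeq on GRCm38.p6, 250 bases before to 50 after the gene's start, 5′ to 3′ on the gene's strand, and 52 of the 60 guidance genes had an entry. Capitals mark matches, on either strand, to CANNTG (the E-box read by Twist and other basic helix-loop-helix factors), TAATTA (a homeodomain core), TGTGGT (a Runx core, ACCACA on the other strand) and TATAAA (the TATA box, TTTATA on the other strand).
Sema3d, chr5:12382916-12383215, plus strand: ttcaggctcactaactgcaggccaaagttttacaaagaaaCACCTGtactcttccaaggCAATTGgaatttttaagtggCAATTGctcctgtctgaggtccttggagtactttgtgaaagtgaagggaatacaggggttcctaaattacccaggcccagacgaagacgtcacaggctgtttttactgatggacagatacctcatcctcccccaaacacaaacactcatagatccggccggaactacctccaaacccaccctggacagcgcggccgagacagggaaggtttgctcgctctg
Nrp2, chr1:62703067-62703366, plus strand: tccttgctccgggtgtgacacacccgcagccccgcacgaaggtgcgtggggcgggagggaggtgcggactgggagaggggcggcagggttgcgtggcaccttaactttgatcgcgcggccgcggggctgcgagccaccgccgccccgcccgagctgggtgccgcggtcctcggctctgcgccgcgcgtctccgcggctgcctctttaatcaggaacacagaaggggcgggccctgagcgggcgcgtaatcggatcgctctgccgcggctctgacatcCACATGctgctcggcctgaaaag
Slit2, chr5:47982905-47983204, plus strand: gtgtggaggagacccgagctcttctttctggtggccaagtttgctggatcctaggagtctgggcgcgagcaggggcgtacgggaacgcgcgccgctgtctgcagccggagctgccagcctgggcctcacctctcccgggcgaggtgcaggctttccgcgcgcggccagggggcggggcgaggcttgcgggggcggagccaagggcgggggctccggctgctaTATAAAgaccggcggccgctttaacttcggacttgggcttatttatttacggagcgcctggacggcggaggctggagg
Robo1, chr16:72662899-72663198, plus strand: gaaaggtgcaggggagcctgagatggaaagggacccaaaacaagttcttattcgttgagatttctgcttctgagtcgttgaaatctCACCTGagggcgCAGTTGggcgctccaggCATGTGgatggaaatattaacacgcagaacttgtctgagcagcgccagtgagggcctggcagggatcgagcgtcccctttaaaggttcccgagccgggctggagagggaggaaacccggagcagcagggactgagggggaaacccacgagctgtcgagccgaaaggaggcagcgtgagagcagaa
Epha3, chr16:63864126-63864425, minus strand: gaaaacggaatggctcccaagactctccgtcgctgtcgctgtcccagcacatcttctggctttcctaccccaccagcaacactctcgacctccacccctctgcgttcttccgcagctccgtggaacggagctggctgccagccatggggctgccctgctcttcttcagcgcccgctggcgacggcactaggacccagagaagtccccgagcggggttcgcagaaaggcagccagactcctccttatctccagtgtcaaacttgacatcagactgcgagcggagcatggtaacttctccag
No match overlapped another. CANNTG was found in 3 of the 5 windows, at -210, -191 and -171 in Sema3d, at -164, -152 and -135 in Robo1 and at 27 past the start in Nrp2, and it is in 72.3% of all 32851 promoters. The TATAAA of Slit2 lies at -28 and is in 13.6% of all promoters, while TAATTA (5.29% of all) and TGTGGT (16.8% of all) were in 0 of the 5 windows. G and C made up 49.7% of the Sema3d window, 57% in Robo1, 60.7% in Epha3, 68% in Slit2 and 70.7% in Nrp2, against a median of 52.7% over all. A match describes letters in a window and is not a bound site.

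Of the ephrin-A ligands, 4 of 5 were tested. All 4 (Efna1, Efna2, Efna4, Efna5) were called higher in mandible against ulna, and with 1 probe set a gene Efna5 was called in calvaria. For Efna2 and Efna4, no ulna array was above the median. Efna5, a ligand of several EphA receptors, read 165 and 230.1 in calvaria, 245 and 223 in mandible and 70.8 and 40.3 in ulna. The skull sites overlapped and both lay above ulna, by 1.79 in calvaria (SE 0.25, adjusted p = 0.000308) and 2.01 in mandible (SE 0.25, adjusted p = 7.71e-05).

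Efna1, an ephrin that is also widely made by endothelium and epithelium, read 83.2 and 97.3 in calvaria, 175 and 196 in mandible and 48.9 and 59.9 in ulna. No sites overlapped, and mandible was highest. It was called in mandible against ulna (log2 1.66, SE 0.20, adjusted p = 5.19e-05) and against calvaria (log2 1.00, SE 0.20, adjusted p = 0.00382), and the latter became 0.89 without calvaria replicate 1 and 0.91 without mandible replicate 2. In calvaria against ulna it had 0.66 (adjusted p = 0.0268), and its second probe set was called there with 1.05 (adjusted p = 0.0177). The sums of epithelial and tooth markers given above were also highest in mandible. Epithelial markers summed to 197 to 199 in calvaria and 252 to 326 in ulna. The part of these cells in the Efna1 values was not tested.

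Efna2 read 34.2 and 18.7 in calvaria, 79.4 and 41.1 in mandible and 1.99 and 12 in ulna. Efna4 read 21.7 and 12.8 in calvaria, 59.2 and 51 in mandible and 1.34 and 10.7 in ulna. For both of these lipid-anchored ligands, mandible was above the array median and ulna below it, and the ulna arrays were far apart. The differences in mandible minus ulna were 3.43 for Efna2 (SE 0.86, adjusted p = 0.00808) and 3.75 for Efna4 (SE 1.00, adjusted p = 0.0112), and without ulna replicate 1 they were 2.12 and 2.24. Calls were lost for Efna2 without mandible replicate 1 (adjusted p = 0.0894) and for Efna4 without mandible replicate 1 or 2 (adjusted p = 0.0797 and 0.0622). In calvaria minus ulna they had 2.30 and 2.06 (adjusted p = 0.0692 and 0.152). Efna1, Efna3 and Efna4 lie next to each other in the gene order of GRCm38.p6, and Efna3 was below the filter.

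All 3 ephrin-B genes were tested. Efnb2, the ligand known from arteries and from osteoclast signals to osteoblasts, read 74.4 and 111 in calvaria, 369 and 387 in mandible and 58.3 and 38.7 in ulna. Mandible stood well above both other sites, which did not overlap. Efnb2 was 7.34-fold higher in mandible than in ulna (log2 2.87, SE 0.24, adjusted p = 3.47e-06) and 4.04-fold higher than in calvaria (log2 2.01, SE 0.24, adjusted p = 0.000138), and had 0.86 in calvaria against ulna (adjusted p = 0.0183). The summed tooth and epithelial markers were highest in mandible as well. Those of endothelium overlapped between mandible and ulna, with Emcn called higher in mandible (1.71) and Vwf called lower (-1.63). The part of these cells in the Efnb2 values was not tested.

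Efnb3 read 25.8 and 7.23 in calvaria, 75.5 and 70.5 in mandible and 27.6 and 28.2 in ulna. Only the mandible arrays were above the array median. The difference in mandible minus calvaria was 2.38 (SE 0.56, adjusted p = 0.0109), which became 1.46 without calvaria replicate 2 and was lost without mandible replicate 1 or 2 (adjusted p = 0.0779 and 0.0642). In calvaria minus ulna Efnb3 had -1.11 (adjusted p = 0.165), and without calvaria replicate 1 it had -2.02 (adjusted p = 0.0154). Efnb1, whose loss disturbs the skull and face in mice and people, was past the adjusted p in both skull sites but under 2-fold, with 0.64 in calvaria (adjusted p = 0.00985) and 0.78 in mandible (adjusted p = 0.00205). Of its other probe sets, 1 was called in both, with 1.13 (adjusted p = 0.0101) and 1.59 (adjusted p = 0.000813), and 1 in neither.

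The tested Eph receptors other than Epha2 were called higher in both skull sites. Of these, Epha3, Epha4, Epha7 and Ephb1 had no ulna array above the median and passed the filter through the skull sites alone. Their calls therefore support no direction for the receptors as a group. Of 9 EphA genes, 4 were tested, and Epha3, Epha4 and Epha7 were called higher in calvaria and in mandible against ulna. Epha3, a receptor of ephrin-A ligands, read 301 and 275 in calvaria, 222 and 292 in mandible and 14.9 and 21.9 in ulna. The skull arrays overlapped, and the ulna arrays lay under the array median, far below all 4. Epha3 was 15.1-fold higher in calvaria (log2 3.92, SE 0.22, adjusted p = 2.99e-07) and 13-fold higher in mandible (log2 3.70, SE 0.22, adjusted p = 3.75e-07). The skull sites differed by -0.22 with a 95% interval of -0.71 to 0.27. All 3 tested probe sets of Epha3 were called in both, with 3.18 to 4.35 in calvaria and 2.92 to 4.17 in mandible.

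Epha7 read 32.2 and 40.2 in calvaria, 51.5 and 58.1 in mandible and 8.58 and 10.8 in ulna. The sites did not overlap, and ulna was under the array median. It was called with 1.83 in calvaria (SE 0.45, adjusted p = 0.0109), lost without calvaria replicate 2 (adjusted p = 0.0833), and with 2.39 in mandible (SE 0.45, adjusted p = 0.00145). Epha4, the EphA receptor that binds both ephrin classes and is known from coronal suture defects in mice, was called with 1.74 (SE 0.37, adjusted p = 0.00462) and 1.65 (SE 0.37, adjusted p = 0.004). Epha2, a receptor known in osteoclasts and epithelium, had 0.93 in mandible (adjusted p = 0.00331), under 2-fold.

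Of 4 EphB genes, 2 were tested and both were called in both skull sites. Ephb3, a receptor of ephrin-B ligands, read 65.9 and 82.1 in calvaria, 83.8 and 82.7 in mandible and 31.6 and 5.66 in ulna. All skull arrays lay above ulna, whose arrays differed widely. The difference was 2.38 in calvaria (SE 0.61, adjusted p = 0.0134) and 2.52 in mandible (SE 0.61, adjusted p = 0.0066). Without ulna replicate 2 these were 1.15 and 1.29, without ulna replicate 1 the calvaria value was 3.61, and the calvaria call was lost without calvaria replicate 1 or 2 (adjusted p = 0.0523 and 0.0878).

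Ephb1 read 41.5 and 38.1 in calvaria, 39 and 58.1 in mandible and 18.3 and 2.13 in ulna. The skull sites overlapped, and both ulna arrays were under the array median. The differences were 2.60 in calvaria (SE 0.85, adjusted p = 0.0403) and 2.81 in mandible (SE 0.85, adjusted p = 0.0201). Without ulna replicate 2 they were 1.05 and 1.27, neither called, and without ulna replicate 1 they were 4.14 and 4.36. The calvaria call was also lost without calvaria replicate 1 or 2 or mandible replicate 1 or 2 (adjusted p = 0.152, 0.138, 0.0615 and 0.0672), and the mandible call without mandible replicate 1 or 2 (adjusted p = 0.0593 and 0.121).

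**Figure D3:**
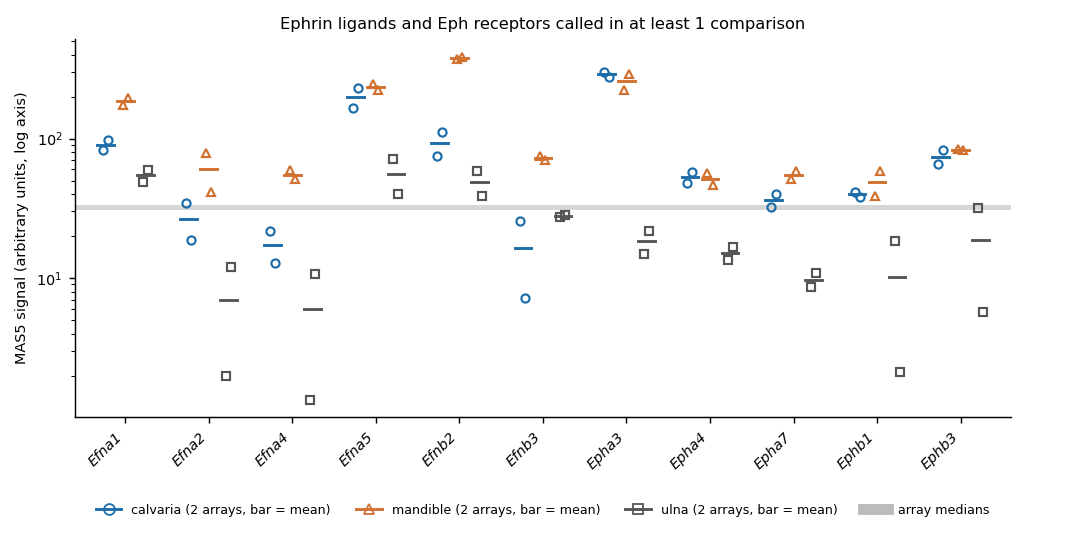
MAS5 signal (arbitrary units, log axis) on each array for the ephrin and Eph genes called in at least 1 comparison, with circles for calvaria, triangles for mandible, squares for ulna, bars for the mean of 2 arrays and a grey band for the array medians. The Eph receptors have calvaria and mandible side by side above ulna, with Epha3 at 222 to 301 against 14.9 to 21.9, while Efnb2 and Efnb3 are highest in mandible.

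Several probe sets of a gene gave a further reading of the same arrays. Of the 46 tested genes, 18 had more than 1 tested probe set. Over all 25233 probe sets, 11.9% were called in calvaria against ulna, 20.7% in mandible against ulna and 7.57% between the skull sites. All probe sets of a gene had the same sign for 15 of the 18 in calvaria against ulna, 15 in mandible against ulna and 13 in mandible against calvaria. In calvaria against ulna, all probe sets were called for Epha3, Epha4, Nrp2 and Slit2, and the signs were mixed for Plxnb3, Sema3e and Sema6d. Among the probe sets of Slit2, 3 of 3 were called in calvaria, with 1.42 to 2.04, and 1 of 3 in mandible, with 0.72 to 1.10.

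**Figure D4:**
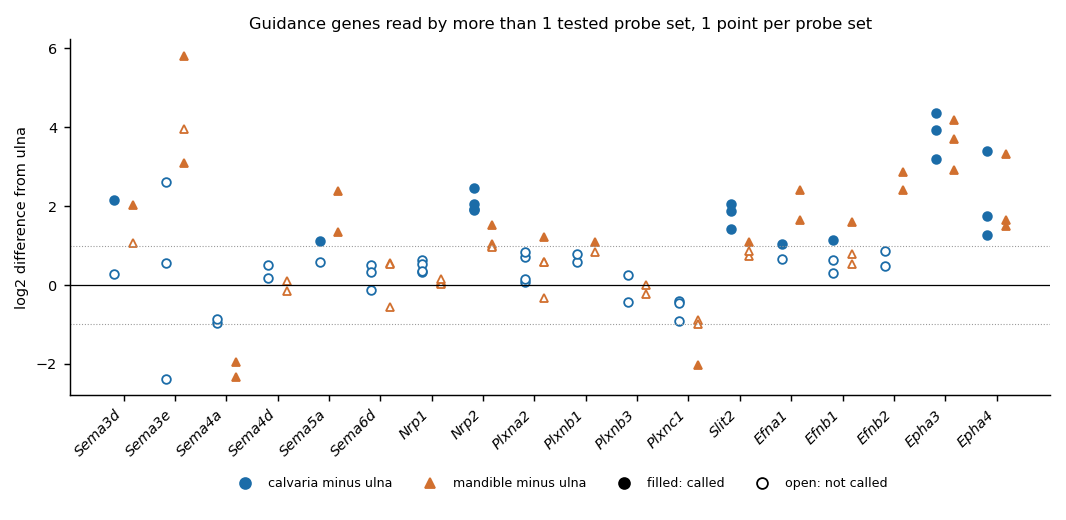
Log2 difference from ulna for each tested probe set of the 18 guidance genes that had more than 1, with circles for calvaria, triangles for mandible, filled points for called probe sets and dotted lines at 2-fold. The 3 probe sets of Epha3 and the 4 of Nrp2 are all called in calvaria, whereas those of Sema3e spread from -2.37 to 2.62 there.

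Other guidance genes were read through lists of netrin and repulsive guidance genes and of molecules that carry the signal inside the cell. Of 14 netrin and repulsive guidance genes, 9 were tested, 5 were called higher in calvaria (Ntn1, Neo1, Unc5b, Unc5c, Rgmb) and 4 in mandible (the same without Rgmb), and none lower, with medians of 1.03 and 0.70. Over all tested genes, 8.44% were called higher in calvaria and 11% in mandible, which is the background for both lists. Unc5c, a repulsive netrin receptor, read 75.8 and 81.5 in calvaria, 96.5 and 86 in mandible and 5.85 and 5.64 in ulna. Both skull sites were above the array median, and ulna was far under it, so Unc5c passed the filter through the skull sites alone. The difference was 3.70 in calvaria (adjusted p = 1.89e-05) and 3.87 in mandible (adjusted p = 7.82e-06).

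Neo1, the receptor shared by netrins and repulsive guidance molecules, was called with 1.71 in calvaria (adjusted p = 6.34e-07) and 1.54 in mandible (adjusted p = 9.81e-07). Unc5b, the netrin receptor of blood vessels, was called with 1.18 and 2.25 against ulna and with 1.07 in mandible against calvaria. It was under 2-fold in calvaria without ulna replicate 1 (0.92) and between the skull sites without mandible replicate 2 (0.91). Ntn1, a secreted netrin, had 1.03 in calvaria (adjusted p = 0.0135), lost without calvaria replicate 1 or 2 or ulna replicate 1 (adjusted p = 0.0625, 0.0646 and 0.0735), and 1.59 in mandible. Rgmb had 1.05 in calvaria (adjusted p = 0.0161), lost without calvaria replicate 1 or 2 or ulna replicate 2 (adjusted p = 0.0936, 0.0602 and 0.0973).

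Of 28 signal transducers, 24 were tested, 4 were called higher and 0 lower in calvaria (median 0.47, with 2 lower at an unadjusted p under 0.05), and 7 higher and 1 lower in mandible (median 0.58). Beside the count of 0, Vav3, an exchange factor, had -0.76 in calvaria (limma, adjusted p = 0.0278), under 2-fold. Chn1, the Rac regulator downstream of Epha4, had 2.52 in calvaria (adjusted p = 9.85e-07) and 2.56 in mandible (adjusted p = 6.13e-07). Farp2, an exchange factor bound to class A plexins, had 2.23 and 1.76. Dpysl3, a collapsin response mediator, had 1.80 and 1.51. Ngef, the exchange factor of Eph receptors known as ephexin, had 1.42 and 1.51, and its calvaria call was lost without calvaria replicate 2 (adjusted p = 0.0908).

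In mandible, Farp1 (1.59), Srgap1 (1.07), a Robo effector, and Pdzrn3 (2.06) were also called higher, with Srgap1 lost without mandible replicate 2 or ulna replicate 1 (adjusted p = 0.113 and 0.0986). Mical1, an actin oxidase of a family known downstream of plexins in Drosophila, was called lower, with -1.67. Between the skull sites, Pdzrn3 was called higher in mandible with 1.18 and Mical1 lower with -1.42.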

How the data were processed

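RNA of calvaria, mandible and ulna was read on 6 Affymetrix mouse arrays, 2 for each site, labelled in a single amplification cycle. The authors made the deposited values with MAS5 (version not stated) and gave them as signal, a linear intensity whose 2% trimmed mean is 100 on each array, for 45101 probe sets. Probe sets were named from the platform annotation, with symbols updated through RefSeq genes of GRCm38.p6 (34958 with 1 symbol, 932 with several, 9211 with none). Arrays have no read depth, and their number, 2 a site, limits the precision.

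Each array was divided by its median, log2 was taken with no offset, 64 control probe sets were left out, and the 25233 probe sets that exceeded the median on 2 or more arrays were tested. A mean for each site was fitted to all 6 arrays with limma 3.58.1 (trend, residual degrees of freedom 3, prior 7.67) in R 4.3.3, and p-values were adjusted by Benjamini and Hochberg over all tested probe sets of a comparison. Calls needed an adjusted p below 0.05 and a 2-fold change. Sequences and plots were made with Python 3.11.15 and matplotlib 3.10.9, and the fit was tested on simulated data.

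Each gene was represented by its tested probe set of highest mean signal. Values on every array are given for up to 10 called members a comparison and direction, by size, and for the member with the highest mean in each role group, while other members are given by difference, count or range. Alternatives covered scaling, filter, offset, variance model, arrays in the fit, replicate block, call rule and choice of probe set. The members, gene lists and tests were chosen with earlier results of these data known. T cell markers were also read: 2 of 5 were tested, 1 was called lower in each skull site against ulna and 1 higher in mandible against calvaria, and the sums lay between 52.7 and 104.4. Unc5c and the other named netrin and transducer genes come from the lists, not from the rule for members. The rat arrays and tissue sections of the study were not used here.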

Additional observations from a re-analysis of the deposited data

How the results depend on the processing

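In calvaria against ulna, 15 higher and 0 lower became 7 higher (of 23 tested) with a filter at the 75th percentile, 8 higher without moderation of variances, 26 higher and 2 lower with the adjusted p alone, and 27 higher with every probe set counted. In mandible against ulna, 19 higher and 2 lower became 11 and 1 with the 75th percentile filter, 10 and 1 without moderation, 32 and 4 with every probe set, and 4 lower with the adjusted p alone. Between the skull sites, 3 higher and 3 lower became 0 and 0 without moderation, 5 and 6 with the adjusted p alone, 7 and 6 with every probe set, 5 higher with only the 4 arrays compared, and 5 lower with the probe set of the largest change. Leaving out each array in turn gave 9 to 16 higher and 0 to 2 lower in calvaria, 12 to 21 higher and 1 to 3 lower in mandible, and 1 to 5 higher and 1 to 3 lower between the skull sites. In these fits the lone array of a site is taken to vary like the other sites.

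No called guidance gene changed sign in any alternative that was run. Calls held in every alternative in which the gene's probe set was tested for 7 of 15 genes in calvaria (Epha3, Epha4, Nrp2, Robo1, Sema3d, Slit2, Slit3), for 9 of 21 in mandible (Efna1, Efnb2, Epha3, Epha4, Epha7, Robo1, Sema3d, Sema4a, Sema5a) and for 0 of 6 between the skull sites. The 75th percentile filter did not test Epha4 and Epha7. Among differences that were not called, Sema3e in calvaria minus ulna ranged from -0.73 without ulna replicate 1 to 5.97 without ulna replicate 2, Sema6d in mandible minus ulna turned to -0.56 with another probe set, and Sema3d in mandible minus calvaria to 0.79 with another probe set and ranged from -0.26 to 0.0013 without calvaria replicate 1 or 2. The cause was not tested. With no scaling, the median of all probe sets in mandible minus ulna moved from -0.13 to -0.02. With the replicate number as a block, the counts were 15 and 0, 19 and 2, and 3 and 3. The deviations of arrays with the same number correlated at -0.005, 0.006 and -0.012. These values show no component shared by number in expression and cannot tell whether arrays of the same number came from the same mice. Both arrays of the lower site were under the array median in 7 of 15, 10 of 21 and 2 of 6 called differences.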
